A study of Mus musculus with 5 samples.

Results

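Fibroblasts of the mouse mammary gland that carried transcripts of Inmt, Fgl2 and Gdf10 were described across 5 single-cell RNA libraries. A barcode was taken as a fibroblast when Col1a1, Col1a2, Col3a1 and Dcn together had at least 50 and Epcam and Krt18 together fewer than 5 per 10000 UMIs (unique molecular identifiers, each standing for 1 captured transcript), with 0 Ptprc UMIs and at most 10% mitochondrial UMIs. A fibroblast was a member when its summed UMIs of Inmt, Fgl2 and Gdf10 came to at least 3 and to at least 2 times each of 3 other sums, those of Pi16, Anxa3 and Efhd1, of Col15a1, Smoc2 and Vtn, and of Spon1, Tnc and Crabp1. The rule found 1120 members among 6276 fibroblasts (17.8%) and 14344 barcodes. By the same rule applied to the other sums, 3526 fibroblasts fell in the Pi16 class, 258 in the Col15a1 class and 176 in the Spon1 class, and 1196 in no class.

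The glands came from female BALB/cj mice aged 30 weeks, ovariectomized 20 weeks before treatment, so all 5 groups lacked ovarian hormones of their own. The groups, with 1 library each, received for 1 week vehicle (Vehicle), 17β-estradiol at 1 µg per animal and day (E2), estradiol with a polybrominated diphenyl ether mixture in the food (E2+PBDE), estradiol with progesterone at 0.1 mg per animal and day (E2+P4), or all of these (E2+P4+PBDE). The mixture held BDE-47 at 7.1, BDE-100 at 0.4 and BDE-153 at 0.9 mg per kg of food, and the other groups ate matched food with DMSO, which was also the injected vehicle. The fourth glands were dissociated with collagenase and DNase I, and how many mice a library held is not given in the sources used here.

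Mammary fibroblasts sit around the ducts and within the fat pad, where they lay down matrix, hold growth factors in place and pass hormone signals on to the epithelium. In several tissues they divide into adventitial cells that express Pi16 and Dpp4 and parenchymal cells that express Col15a1, and stromal cells of fat depots include progenitors that can become adipocytes and cells that restrain this step. Of the 3 genes of the rule, Inmt encodes a methyltransferase of indoleamines and thioethers, Fgl2 a membrane and secreted fibrinogen-like protein that can cleave prothrombin, and Gdf10 a secreted ligand of the BMP and TGF-β family.

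The 3 genes lie on different chromosomes of the mouse genome build GRCm38. Fgl2 spans chr5:21372642-21378374 on the plus strand, Gdf10 spans chr14:33923587-33937983 on the plus strand, and Inmt spans chr6:55170626-55175043 on the minus strand. Their promoters are shown because the genes were read together in the members while Inmt differed most of the 3 between Vehicle and the estradiol libraries. Each window runs from 250 bases before to 50 bases after the RefSeq start site (GRCm38.p6), 5′ to 3′ on the gene's strand, at chr5:21372423-21372722 for Fgl2, chr6:55174941-55175240 for Inmt and chr14:33923337-33923636 for Gdf10. Capitals mark the estrogen response half-site GGTCA and the TATA box letters TATAAA, on either strand.
Fgl2: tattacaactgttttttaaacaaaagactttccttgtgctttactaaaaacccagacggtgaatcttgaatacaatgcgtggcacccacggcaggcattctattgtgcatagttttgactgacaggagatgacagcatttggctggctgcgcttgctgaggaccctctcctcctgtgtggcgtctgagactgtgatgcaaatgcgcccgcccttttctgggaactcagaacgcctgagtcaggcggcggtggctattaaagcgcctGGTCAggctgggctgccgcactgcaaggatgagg
Inmt: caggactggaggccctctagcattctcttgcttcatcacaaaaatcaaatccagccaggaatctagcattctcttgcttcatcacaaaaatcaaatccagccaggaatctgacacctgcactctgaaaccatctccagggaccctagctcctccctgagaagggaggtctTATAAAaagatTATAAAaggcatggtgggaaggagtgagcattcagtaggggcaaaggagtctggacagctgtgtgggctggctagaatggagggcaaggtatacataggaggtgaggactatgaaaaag
Gdf10: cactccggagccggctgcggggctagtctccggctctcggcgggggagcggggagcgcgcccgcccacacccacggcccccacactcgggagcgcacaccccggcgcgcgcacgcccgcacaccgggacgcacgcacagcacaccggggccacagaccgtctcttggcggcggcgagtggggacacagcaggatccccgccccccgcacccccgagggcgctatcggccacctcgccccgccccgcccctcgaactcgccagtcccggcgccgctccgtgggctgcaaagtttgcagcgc
The Fgl2 window held 1 half-site and 0 TATAAA, the Inmt window 2 TATAAA and 0 half-sites, and the Gdf10 window neither. Of 32851 promoter windows of this length, 40.5% held GGTCA, 13.6% held TATAAA and 0.07% held the full palindromic estrogen response element, that is the half-site followed after 3 bases by its reverse complement, which none of the 3 windows had. A match is a description of these letters only.

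The members were chosen by these sums of measured UMIs, which were mostly far above the minimum. Of the 1120 members, 899 had at least 10 UMIs of Inmt, Fgl2 and Gdf10. The median sum of Inmt, Fgl2 and Gdf10 in a member was 17 UMIs in Vehicle, 15 in E2, 16 in E2+PBDE, 11 in E2+P4 and 9 in E2+P4+PBDE. Only 7 members sat at exactly 3 UMIs, and 9 fibroblasts with 2 UMIs met the rest of the rule. The ratio decided far more cases, since 2942 fibroblasts had at least 3 UMIs of the 3 genes and failed it, 2529 of them by the Pi16 sum, while 63 members stood at exactly 2 times their next sum. The 3 genes were therefore not absent from other fibroblasts, and membership marks one end of a range.

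Fgl2 was the gene nearly all members shared. It had a UMI in 97.6% of members, Gdf10 in 56.7% and Inmt in 51.1%. All 3 genes were seen in 29.6% of members, and 24.2% showed only 1 of them. Inmt was the gene that varied by library, with a UMI in 64% of Vehicle members and in 23%, 37.6%, 32.1% and 24.5% of the members of E2, E2+PBDE, E2+P4 and E2+P4+PBDE. Epithelial barcodes, which served as a gauge of free RNA (Epcam and Krt18 at 20 or more and the 4 fibroblast genes under 50 per 10000 UMIs), showed Inmt in 29.5% in Vehicle and in 3.66 to 4.96% in the other libraries. Fgl2 had a UMI in 63.7% of the epithelial barcodes of Vehicle and in 21 to 33.1% of those of the other libraries, below the 67.9 to 85.1% of other fibroblasts. That gauge was deeper, with a median of 13890 UMIs in Vehicle against 4612 in members, and the 25% of other Vehicle fibroblasts with an Inmt UMI did not exceed its share. Per UMI the order was the other way, with 110.3 CPM (UMIs per 1000000 UMIs of the summed barcodes) in those fibroblasts and 24.7 in the epithelial barcodes of Vehicle, and no comparison at matched depth was made.

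In level, Inmt stood at 765 CPM in Vehicle members, 148 in E2, 193 in E2+PBDE, 211 in E2+P4 and 147 in E2+P4+PBDE. Vehicle stood above the 4 estradiol libraries, which lay close to each other. Fgl2, which binds immune receptors in its secreted form, was at 3293, 2227, 2084, 1753 and 1621 CPM in the same order. Gdf10 was at 299, 175, 179, 187 and 155. Both were highest in Vehicle as well, by a smaller factor than Inmt. These 3 genes chose the members, so their values are given with no test. Over all fibroblasts, whatever their class, Inmt had 274 CPM in Vehicle and 66.2 in E2.

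The share of fibroblasts that met the rule was largest in Vehicle, at 27.7% (681 of 2462, exact Clopper-Pearson 95% interval 25.9 to 29.5%). It was 15.8% in E2 (126 of 799, 13.3 to 18.5%), 10.4% in E2+PBDE (186 of 1796, 8.98 to 11.9%), 14.1% in E2+P4 (78 of 554, 11.3 to 17.3%) and 7.37% in E2+P4+PBDE (49 of 665, 5.5 to 9.62%). The intervals of Vehicle and of the other libraries did not overlap, but they cover counting error only. With 1 library per group, no difference in share was tested. The Vehicle share depended on the depth of the barcodes. Among fibroblasts with at least 5397 UMIs, the highest of the 5 libraries' lowest values, the share was 16.3% in Vehicle (176 of 1082, 14.1 to 18.6%), 15.8% in E2, 9.76% in E2+PBDE, 13.3% in E2+P4 and 11.4% in E2+P4+PBDE (9 of 79).

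Thinning each fibroblast to 3000 UMIs, a number that every one of them exceeded, gave 26.8% in Vehicle, 13.9% in E2, 10.5% in E2+PBDE, 14.3% in E2+P4 and 6.02% in E2+P4+PBDE. Vehicle therefore stood highest and E2+P4+PBDE lowest at equal UMIs per barcode, while Vehicle and E2 lay within each other's intervals at an equal lowest depth, an alternative added after the data had been seen. The lowest fibroblast of Vehicle had 3374 UMIs and that of E2 5397, and the part that calling of barcodes by the authors' pipeline took in the difference was not tested. Without Inmt in the sum, the share was 24.6% in Vehicle and 14.8% in E2. Fibroblasts themselves made up 79.2% of barcodes in Vehicle, 35.8% in E2, 50.8% in E2+PBDE, 17.8% in E2+P4 and 28.2% in E2+P4+PBDE, so members were 21.9, 5.64, 5.26, 2.51 and 2.08% of all barcodes.

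**Figure D1:**
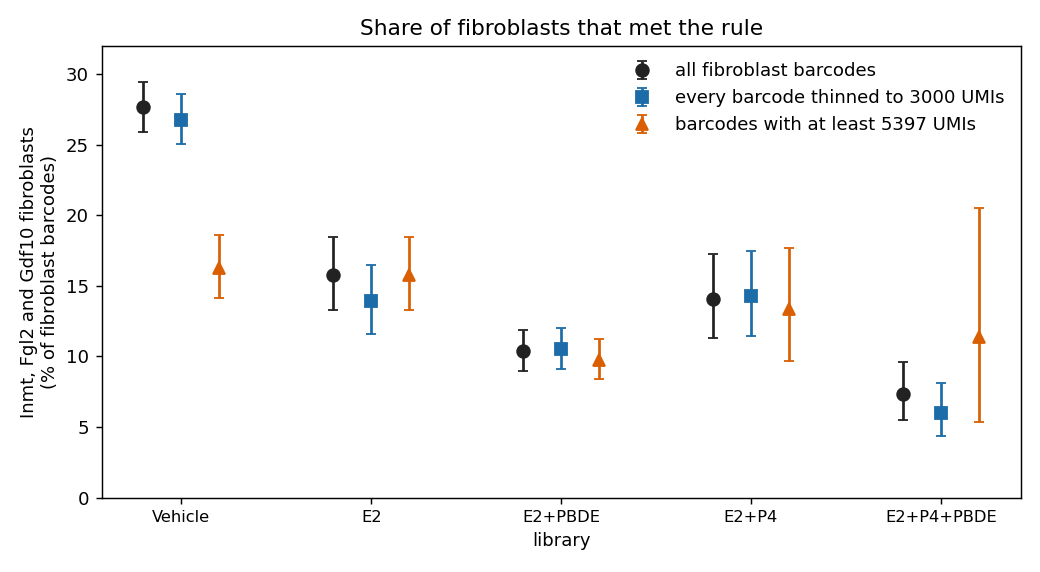
Share of fibroblast barcodes that met the rule (y axis, percent) in each library (x axis), for all fibroblasts (circles), after thinning to 3000 UMIs (squares) and for barcodes with at least 5397 UMIs (triangles). Bars are exact 95% intervals of counting error. Vehicle stood at 27.7% over all fibroblasts and at 16.3%, beside 15.8% in E2, at the equal lowest depth.

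Members were slightly shallower than other fibroblasts in Vehicle, with a median of 4612 against 5436 UMIs, and close to them elsewhere. The median mitochondrial share was higher in members in each library, at 2% against 1.66% in Vehicle and 1.81% against 1.25% in E2. With each barcode thinned to 3000 UMIs, 164 of the 263 genes called higher below and 219 of the 332 called lower kept their call. The part of the mitochondrial share in the gene differences was not tested. The library totals ran from 19982067 UMIs in E2+P4+PBDE to 42012988 in E2+PBDE, and members held 238140 UMIs in E2+P4+PBDE and 3319213 in Vehicle. Pairs of libraries shared 3 to 15 barcode sequences, none of them between members.

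The markers listed with the label were read in members. The members and lists were chosen with earlier results of these data known, so this is no independent check of the label. Penk and Ccl8, which the rule did not read, were both higher in members than in all other fibroblasts in 5 of 5 libraries. Mean Penk was higher in the Spon1 class than in members, as given below. Pdgfra, the receptor that marks most fibroblasts, had 299, 262, 307, 263 and 289.7 CPM in members in library order, and 204, 269, 280.3, 269.9 and 236 in other fibroblasts. Of 4 adipocyte genes, Plin1, Cidec and Lep had 0 UMIs in members and Adipoq had 1. Of 4 mesothelial genes, Msln, Upk3b and Lrrn4 had 0, and Krt19, also a luminal keratin, had 329. The 4 luminal genes, led by Krt18, summed to 167 CPM in Vehicle members and 604 in E2+P4 members, below the 231 and 722 of other fibroblasts. The 4 smooth muscle genes, led by Acta2, summed to 77.4, 39.2, 21.3, 71.7 and 46.2 in members and 27.7, 177, 28.9, 80.1 and 32.8 in others, with no common direction. The 5 hematopoietic genes, led by Cd74, were at 105, 28, 91.3, 91.2 and 79.8 against 143, 100.4, 38.6, 86.5 and 138, and their part in the immune genes described was not tested. Of the endothelial genes, Pecam1 had 17 UMIs in E2 members and 15 of them came from 1 barcode.

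Members were next compared with all other fibroblasts, to ask which genes outside the rule went with Inmt, Fgl2 and Gdf10. They expressed more of 6 of 9 preadipocyte genes, among them Fabp4, Cd36, Lpl and Apoe, more of the basement membrane collagens Col4a1 and Col4a2, and more Thbs1, Sparcl1 and Igfbp7. They expressed less of the adventitial progenitor genes Dpp4, Sema3c and Cd55 and of the ligand Bmp7. Of 9762 genes tested, 263 (2.69%) were higher and 332 (3.4%) lower at an adjusted p under 0.05 and at least 2-fold (edgeR's quasi-likelihood test on UMIs summed per library and class, library as a block, Benjamini-Hochberg adjustment). The 5 libraries are 5 treatments and serve here as the replicates, so p-values measure the spread of the difference between these libraries. Since the rule demands few Pi16, Anxa3 and Efhd1 UMIs and the Pi16 class holds most other fibroblasts, genes that vary together with those 3 differ through the way the classes were formed.

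Of the preadipocyte list, Fabp4, a fatty acid carrier of adipocytes and capillaries, had 651, 552, 599, 449.7 and 462 CPM in members, in the order Vehicle, E2, E2+PBDE, E2+P4 and E2+P4+PBDE. Other fibroblasts had 129.8, 135, 91.2, 133 and 119, so the groups did not overlap. The log2 fold change of Fabp4 was 2.24 ± 0.10 (SE derived from the edgeR F test, here and below, n = 5 libraries, edgeR adjusted p = 1.2e-13). Cd36, a fatty acid receptor, ran from 35.9 in Vehicle to 78.2 in E2+P4 in members and from 8.05 to 18 in other fibroblasts, a log2 fold change of 2.30 ± 0.13. Lpl, the lipase that releases fatty acids at the vessel wall, was already abundant in other fibroblasts, at 699 to 1439 CPM, and reached 1638 to 2905 in members. Apoe, a lipoprotein component, was at 563 to 1976 in members and 264 to 491 in others, with its lowest member value in E2+P4.

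The nuclear receptor Pparg, which drives fat cell formation, had 15.7, 20.1, 21.3, 13 and 21 CPM in members and 6.63 to 9.45 in other fibroblasts, and its log2 fold change was 1.23 ± 0.21 (edgeR adjusted p = 0.00011). Of 9 preadipocyte genes tested, 6 were higher (Icam1, Pparg, Fabp4, Cd36, Lpl and Apoe) and none lower, with a list median of 1.23 on the log2 scale against -0.02 over all genes. Cebpa, Plin2 and Zfp423 of that list did not pass, at 0.74, 0.51 and -0.05. Of the 7 genes listed for stromal cells that regulate adipogenesis, 6 were higher (F3, Clec11a, Fmo2, Mgp, Meox2 and Bgn), with a median of 1.32. Against fibroblasts of no class alone, Mgp and Bgn turned lower in estimate. F3, the tissue factor that starts coagulation and a surface marker of such cells, was at 50.4 to 146 CPM in members and 23.1 to 51.6 in others, so the ends of these ranges met. Clec11a, a secreted lectin that acts as a growth factor, was at 12.6 to 21.3 against 3.98 to 7.93, which did not overlap. Preadipocyte and adipogenesis-regulating genes were thus both higher in the same summed barcodes than in all other fibroblasts together. Of the 4 adipogenesis-regulating genes tested against each class, 4 were higher than in the Pi16 class, none than in the Col15a1 class, where their median was -0.06, and none than in the Spon1 class, where 1 was lower.

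The interstitial progenitor list went the other way, with 6 of 7 genes lower, none higher and a median of -1.84. Dpp4, a dipeptidase on the surface of adventitial progenitors, was at 59.7, 70.5, 67.7, 73.9 and 84 CPM in members and 249, 283, 274, 189 and 217 in other fibroblasts (log2 fold change -1.84 ± 0.10, edgeR adjusted p = 3.5e-12). Sema3c, a secreted guidance protein, fell by 2.72 and the complement regulator Cd55 by 1.81. The deepest drops were those of genes nearly silent in members. Mrgprg, an orphan receptor of the Mas-related family, had 6.63 CPM in Vehicle members, 0.761 in E2+PBDE and 0 in the other 3 libraries, against 15.2 to 226 in other fibroblasts. Akr1c18, the 20α-hydroxysteroid dehydrogenase that inactivates progesterone, was at 2.17 to 21 in members and 191 to 303 in others (log2 fold change -4.78 ± 0.15). Aldh1a3, which makes retinoic acid, was at 4.48 to 21.7 against 111 to 158. Smpd3, a neutral sphingomyelinase, Rtn1, a reticulon, and Car8, a carbonic anhydrase relative, each stayed at or below 21 in members and at or above 105 in other fibroblasts.

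Of the other named higher genes, Rgcc, a cell cycle regulator that responds to complement, was at 141 to 259.6 CPM in members and 32.8 to 49.5 in others. Rab20, a small GTPase of endosomes, was at 88.2 to 126 against 13.3 to 33.2. Epas1, the hypoxia-inducible factor HIF-2α, was at 33.6 to 75 against 10.1 to 23.5, the granin Scg3 at 42.8 to 124 against 10.5 to 37, and the metalloreductase Steap4 at 53.7 to 144 against 16.2 to 47.6.

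**Figure D2:**
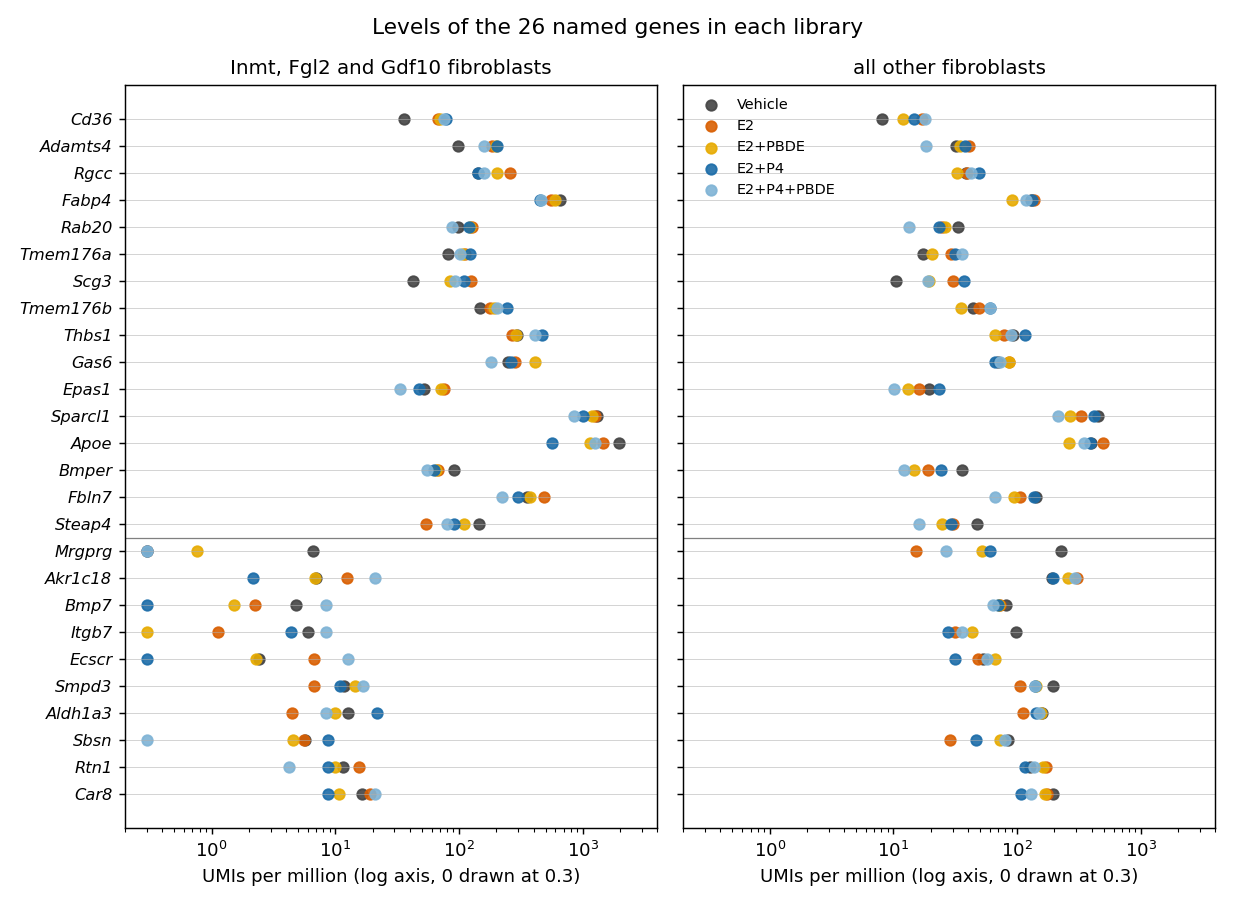
CPM (x axes, log scale, 0 drawn at 0.3) of the 16 named genes that were higher and, under the grey line, the 10 that were lower in members (left) than in all other fibroblasts (right), 1 point per library. Fabp4 lies between 449.7 and 651 in members and between 91.2 and 135 in the others.

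The same pattern was examined by the role of the genes, starting with the family of Gdf10. The list of BMP and TGF-β ligands, which left out Gdf10 and held the procollagen protease Bmp1 for its name, gave 3 of 10 lower and none higher. Bmp7 had 4.82, 2.24, 1.52, 0 and 8.4 CPM in members and 63.8 to 80.7 in other fibroblasts (log2 fold change -4.38 ± 0.22, edgeR adjusted p = 7.3e-13). Bmp2 fell by 1.72 and Bmp3, a ligand of inhibitory action, by 4.66 on the log2 scale. Of 8 inhibitors, 2 were higher and none lower, among them Bmper (1.74 ± 0.13), which binds BMPs outside the cell. Fst, which binds activins, came to 0.84 and missed the 2-fold limit. Of 9 receptors, Acvr2a was higher at 1.05 and Tgfbr2 lower at -1.01, and of 5 BMP targets, Id1, Id2, Id3, Id4 and Msx1, none passed the call, with a median of -0.27.

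Penk encodes the precursor of the enkephalins, opioid peptides. It had 562, 212, 202, 137 and 223 CPM in members and 194, 85.4, 87, 108 and 85 in other fibroblasts, so each library's members were above its other fibroblasts while the E2+P4 members lay below the Vehicle others. Its log2 fold change was 1.27 ± 0.11 (edgeR adjusted p = 8.6e-09). The rest of the opioid list gave no further call among 5 genes tested. Mme and Anpep, peptidases that cut enkephalins, were at 0.84 and -0.57, and the receptors Oprd1, Oprm1 and Oprk1 were too low to be tested.

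Of 15 chemokines and cytokines, 4 were higher and 4 lower. Ccl8, a monocyte attractant, had 141, 276, 205, 178 and 458 CPM in members and 55.6 to 172 in others (log2 fold change 1.10 ± 0.10, edgeR adjusted p = 6.3e-09). Cxcl12, which retains blood progenitors and lymphocytes, was at 508 to 921 against 198 to 302, and Cxcl14 and Cxcl16 were also higher. Ccl2, the chief monocyte chemokine, was lower, at 428 to 799 against 1487 to 2817, together with Cxcl13, Cxcl2 and the alarmin Il33. Members thus held more Ccl8 and less Ccl2 than all other fibroblasts together in each library. Of 14 genes of this list tested by class, 1 (Cxcl14) was lower than in the Col15a1 class. In the comparison with the Spon1 class 0 were lower, so Ccl2 was not called lower against either class.

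Most matrix genes were not called. Of 13 collagens, Col4a1, Col4a2, Col5a3 and Col18a1 were higher and Col14a1 lower, with a list median of 0.69. Col4a1, a chain of basement membrane collagen, was at 626, 734, 858, 845 and 655 CPM in members and 188 to 411 in others. Of 25 matrix glycoproteins and proteoglycans, Thbs1, Sparcl1, Nid2 and Bgn were higher and Aspn lower. Bgn turned lower in estimate against fibroblasts of no class alone. Thbs1, which activates latent TGF-β, stood at 267 to 471 against 66.6 to 116 (log2 fold change 1.97 ± 0.08). Of 19 genes of matrix proteases, their inhibitors and cross-linking enzymes, the lysyl oxidase Lox, the inhibitor Timp1 and the proteases Mmp3 and Ctsk were higher and Timp3 and Mmp23 lower. The aggrecan-cutting protease Adamts4, outside that list, was higher by 2.28 ± 0.13.

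Genes of growth factor signaling were mixed. Of 14 IGF and FGF genes, Igfbp7 and the branching factor Fgf10 were higher (1.5 and 1.46), and Igfbp2, Igfbp4, Igfbp5, Fgf2 and Fgf18 lower. Igfbp5 turned higher in estimate against fibroblasts of no class alone. Igfbp7, an IGF-binding protein of vessels and stroma, was among the more abundant transcripts at 2179.7 to 2674 CPM against 696 to 1116. Of 13 Wnt genes, 6 were lower (Wnt2, Wnt5b, Wnt11, Rspo3, Sfrp2 and Sfrp4) and none higher, with a median of -0.98. Wnt2, a ligand, had 37.1 to 91.8 CPM in members and 123 to 174 in others. Gas6, the ligand of the AXL and MERTK receptors, was higher at 181 to 408 against 66.6 to 86.

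In enzymes of metabolism, Cyp7b1, which hydroxylates oxysterols and some steroids, was at 12.6 to 28.2 CPM against 2.51 to 5.7 (log2 fold change 2.75 ± 0.22), Cyp1b1, which acts on estradiol and polycyclic compounds, at 56.3 to 87.4 against 14.1 to 36.7, and Ces1d was lower. With Fmo2 higher as well, 3 of 17 methyltransferases and xenobiotic enzymes were higher and 1 lower. Of 8 retinoid genes, Rbp4 and the retinoic acid hydroxylase Cyp26b1 were higher and Aldh1a3 lower. Complement gave 1 higher (C2) and 2 lower (C3 and Cd55) of 10. Of 11 coagulation genes, 2 were higher, among them F3, and Thbd and Procr, both parts of the protein C pathway, were lower.

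Hormone receptors were low in all fibroblasts. Esr1, the estrogen receptor, had 32.5, 25.7, 25.1, 32.6 and 21 CPM in members and 39.2 to 56.2 in others, a log2 fold change of -0.74 ± 0.13 that did not reach 2-fold. Pgr, the progesterone receptor, was at 1.81 to 12.6 against 3.12 to 18 and was called lower (-1.11 ± 0.33, edgeR adjusted p = 0.018), against a mean of 85.5 in epithelial barcodes. It was the only one of 9 receptors tested that passed. Nr3c1, the glucocorticoid receptor, was at 56.5 to 90.6 in members, with a log2 fold change of -0.11. Greb1, an estrogen target, was at 0 to 8.4 in members and was not tested. Of 9 hormone response genes, Sgk1 was higher and Per1 lower. Of 16 immediate early and dissociation genes, Nr4a1 was lower and none higher, and of 12 interferon-induced genes, Gbp2 was higher and Irf7 lower.

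**Figure D3:**
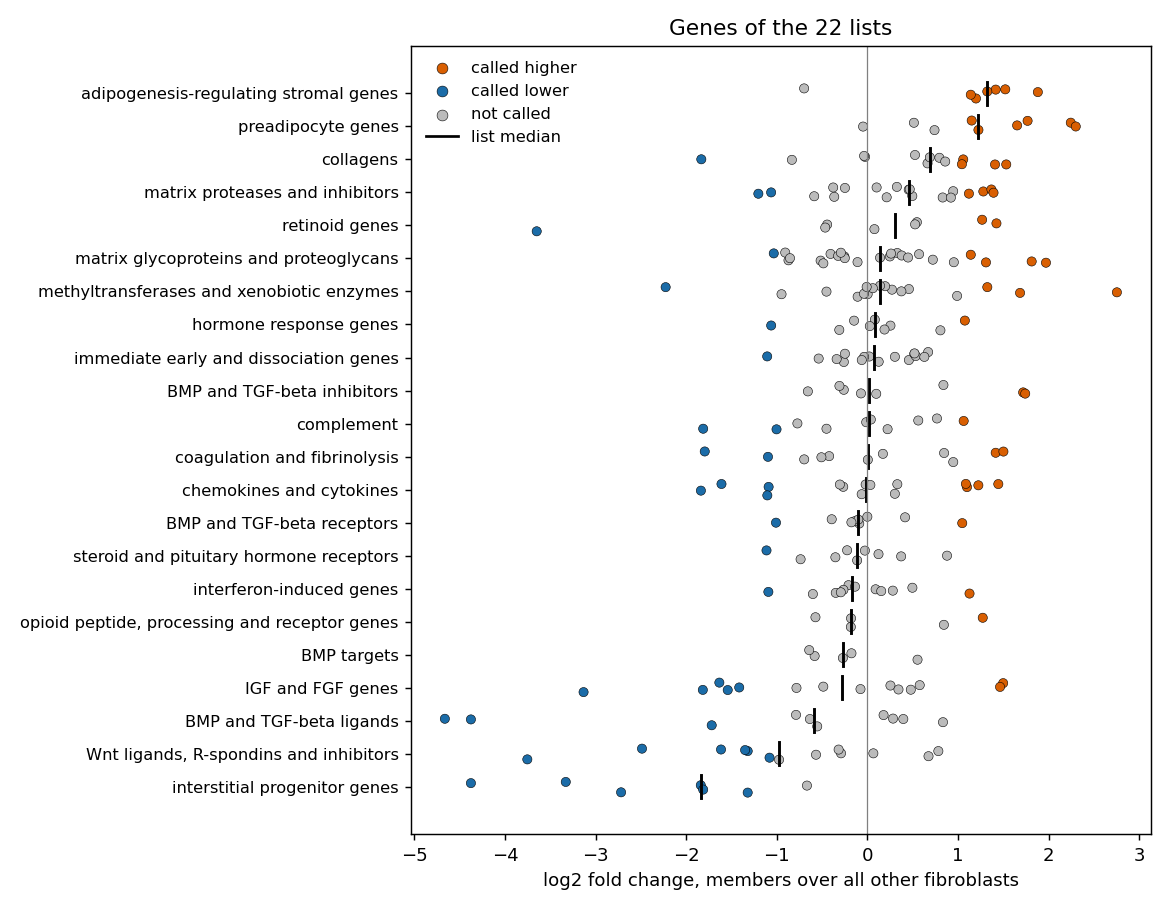
Log2 fold change of members over all other fibroblasts (x axis) for the tested genes of 22 lists (y axis, ordered by list median). Each point is a gene, orange where called higher, blue where called lower and grey otherwise, and the bar is the list median, from -1.84 for interstitial progenitor genes to 1.32 for adipogenesis-regulating genes.

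Because most other fibroblasts were of the Pi16 class, members were set against each class in a single fit of 5384 genes. Against the Pi16 class, 347 genes (6.45%) were higher and 248 (4.61%) lower. Against the Col15a1 class 141 (2.62%) were higher and 59 (1.1%) lower, and against the Spon1 class 491 (9.12%) were higher and 310 (5.76%) lower. All 16 named higher genes were called against the Pi16 class, 5 against the Col15a1 class and 11 against the Spon1 class. All 10 named lower genes were called lower against the Pi16 class, none against the Col15a1 class, and 1 (Bmp7) against the Spon1 class. In the opposite direction, 1 of them (Car8) was called higher against the Col15a1 class and 2 (Smpd3 and Rtn1) against the Spon1 class, with list medians of 0.42 and 0.90. Of 6 interstitial progenitor genes, all were lower than in the Pi16 class, whereas 4 were higher and 2 lower than in the Spon1 class, with a median of 1.83, and 1 was higher than in the Col15a1 class. The named genes were picked by their difference from all other fibroblasts, most of them of the Pi16 class. Their calls against that class therefore follow partly from this choice. Over all genes, more were called in both directions against the Spon1 class than against the Pi16 class.

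Fabp4 and the collagens are given as examples. Mean Fabp4 was 543 CPM in members, 35.4 in the Pi16 class, 845 in the Col15a1 class and 139 in the Spon1 class. The log2 fold change of Fabp4 in members was 3.90 against the Pi16 class and -0.17 against the Col15a1 class (edgeR adjusted p = 0.82). Cd36, Sparcl1, Bmper and Fbln7 were also below the Col15a1 class in estimate, at -0.26, -0.17, -0.44 and -0.23, without passing the test. None of 12 tested collagens was called against the Col15a1 class, where their median was -0.64, while 9 were higher than in the Pi16 class. Col4a1 was at -0.65 against the Col15a1 class (edgeR adjusted p = 0.0012), short of 2-fold. Of 7 preadipocyte genes, 6 were higher than in the Pi16 class and 1, Apoe, than in the Col15a1 class.

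Cxcl14 marked the Col15a1 class more than the members, with means of 1176 and 296 CPM, and its log2 fold change was -1.67 (edgeR adjusted p = 2.3e-07). Penk marked the Spon1 class at a mean of 571 against 267 in members, at -0.82 (adjusted p = 0.022, short of 2-fold), and was 1.97 higher in members than in the Pi16 class. Of 14 chemokines and cytokines, members had 6 higher and 1 lower than in the Col15a1 class and 11 higher and none lower than in the Spon1 class. Of 10 complement genes, 4 and 7 were higher and none lower than in these classes. C3, the central complement component, was 1.80 above the Col15a1 class and 2.52 above the Spon1 class and stood at -1.39 against the Pi16 class.

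Genes that differed from each of the 3 classes were few, 18 (0.334% of those tested) higher and 3 (0.0557%) lower. They were named after their values were seen. The most abundant was Tnfaip6, a hyaluronan-binding protein of inflamed matrix, at 3532 CPM over all members against 1106 in the Pi16 class, 1389 in the Col15a1 class and 509 in the Spon1 class. Its log2 fold changes were 1.5, 1.40 and 2.62, each past the edgeR threshold. Tmem176a and Tmem176b, paired membrane channel genes, were higher by 2.73, 1.73 and 2.05 and by 2.78, 1.32 and 1.97. Epithelial barcodes held more of both, at means of 298 and 400.1 CPM. Against fibroblasts of no class alone, Tmem176b came to 0.96, short of 2-fold. Agt, the angiotensin precursor, was higher by 2.45, 2.11 and 3.92, with 49.2 CPM in members and 2.87 to 11.9 in the classes.

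The other higher genes were C2, Gbp2b, Ifi203, Noct, Rab20, Rcan1, Rgcc, Rnf19b, Sap30, Serpina3n, Slc35e4, Sphk1, Uhrf2 and Vit. They include the calcineurin inhibitor Rcan1, the deadenylase Noct, the sphingosine kinase Sphk1 and the interferon-induced Gbp2b and Ifi203, which have close paralogs, so that their counts are uncertain. The 3 lower genes were Adcy7, an adenylyl cyclase, the secreted Crispld1 and Lefty1, an inhibitor of Nodal. Crispld1 had 11.6 CPM in members, 75.5 in the Pi16 class, 54.2 in the Col15a1 class and 125 in the Spon1 class. The Col15a1 and Spon1 sums were small, from 10 and 24 barcodes in the smallest library, and without E2+PBDE the lower calls dropped to 30 against the Col15a1 class and 202 against the Spon1 class.

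**Figure D4:**
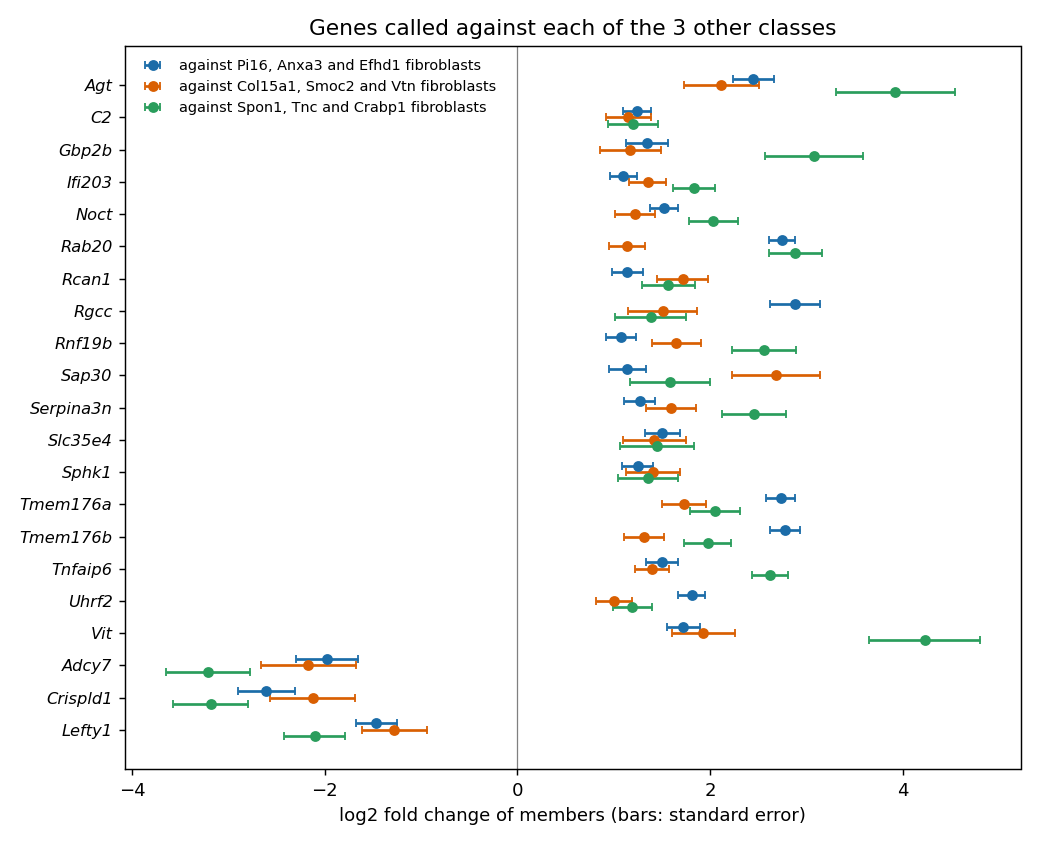
Log2 fold change of members (x axis, bars are standard errors derived from the edgeR F test) against the Pi16, Col15a1 and Spon1 classes for the 18 genes called higher and the 3 called lower against each of them (y axis). Agt, Tmem176a and Tmem176b stand at 1.32 or more against every class.

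Set against the 1196 fibroblasts of no class alone, a comparison added after the data had been seen, 23 genes were higher and 49 lower. Of these, 20 and 39 were also called against all other fibroblasts. Of the named genes, 6 of 16 higher and 10 of 10 lower were not listed as losing their call. These counts can include genes too low to be tested in this comparison. The other higher ones, among them Thbs1, Sparcl1 and Apoe (0.86, 0.67 and 0.70 on the log2 scale), fell short of 2-fold.

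Clustering of each library's fibroblasts without the 12 sum genes and the gate genes gave a view of the members that the rule did not use directly. At a resolution of 0.5, 1 cluster held 45.8% of Vehicle members (312 of 681), 61.9% of E2, 84.9% of E2+PBDE, 57.7% of E2+P4 and 83.7% of E2+P4+PBDE members. That cluster made up 16.9, 18.4, 17.3, 19 and 23% of the fibroblasts. Members were 75% of it in Vehicle, 53.1% in E2, 51% in E2+PBDE, 42.9% in E2+P4 and 26.8% in E2+P4+PBDE, so it also held other fibroblasts. In Vehicle 4 of 9 clusters each held at least 10% of the members. The share moved with the resolution, to 76.5% at 0.3 and 41.6% at 1.0 in Vehicle and to 92.1% and 38.9% in E2. It was the same at 0.3 as at 0.5 in E2+PBDE and E2+P4+PBDE and dropped to 40.9% and 63.3% at 1.0, while in E2+P4 it was 57.7% at each resolution.

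Within members, the libraries were compared to see what estradiol, progesterone and the ether mixture went with. The largest contrast was E2 with Vehicle. Igfbp3, Sult1e1 and C7 were lower and Cthrc1, Mfap4 and Cxcl10 higher in E2. Genes entered when both libraries' members together had 50 UMIs or more. Of 6200 such genes, 174 (2.81%) were at least 2-fold higher and 149 (2.4%) at least 2-fold lower, with 1 UMI added to each sum. Scaled to a median ratio of 1, these were 125 and 200. In other fibroblasts 76 and 57 passed, of 6194 of these genes that also had 50 UMIs or more there. Other fibroblasts outnumbered the members in each library, so counting error moves their ratios less. Their counts, here and in the comparisons below, therefore do not show whether members differed more between libraries. With 1 library per group, no test was made and the intervals below cover counting error only.

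Igfbp3, which carries IGF1 in blood and tissue, had 600.1 CPM in Vehicle members, 47 in E2, 61.6 in E2+PBDE, 86.9 in E2+P4 and 50.4 in E2+P4+PBDE. Vehicle stood apart from the 4 estradiol libraries, as it did in other fibroblasts, at 271 against 48.1 to 72.6. The E2 to Vehicle ratio of Igfbp3 was 0.0783 in members (exact 95% interval 0.0563 to 0.106) and 0.268 in other fibroblasts (0.239 to 0.3). Epithelial barcodes held 26.1 CPM of Igfbp3 in Vehicle and 2.17 to 3.35 in the other libraries, and 31.9% of them in Vehicle had an Igfbp3 UMI against 2.62 to 4.78% elsewhere. In Vehicle the share was 54.2% in members and 49.6% in other fibroblasts. The part of free RNA in the difference between libraries was not tested.

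Sult1e1, the sulfotransferase that inactivates estradiol, had 89 UMIs in Vehicle members (26.8 CPM), 0 in E2, 1 in E2+PBDE, 0 in E2+P4 and 1 in E2+P4+PBDE. Against a floor of 3 UMIs in E2 (3.36 CPM), it was at least 7.99-fold higher in Vehicle. C7, a terminal complement component, had 50 UMIs in Vehicle and 0 in E2, at least 4.49-fold higher in Vehicle by the same floor. It was at 0 in E2+P4 as well, and at 5.33 and 4.2 CPM in E2+PBDE and E2+P4+PBDE. Penk also stood lower in E2 than in Vehicle, at a ratio of 0.376 (0.322 to 0.437), against 0.44 in other fibroblasts.

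Cthrc1, a secreted protein of matrix-producing fibroblasts, had 14.5, 162, 103, 104 and 130.2 CPM in members. All 4 estradiol libraries stood above Vehicle, and the E2 to Vehicle ratio was 11.2 (8.04 to 15.9) in members and 5.68 in other fibroblasts. Mfap4, an elastic fiber protein, had 32.5, 241, 177, 146 and 25.2, so E2+P4+PBDE lay at the Vehicle level and the other 3 above it. Its E2 to Vehicle ratio was 7.39 (5.84 to 9.41). Cxcl10, an interferon-induced chemokine, had 8.44, 128, 28.1, 139 and 29.4 CPM. E2 and E2+P4 stood high and the other 3 libraries low, and in E2+P4 1 barcode gave 34.4% of its UMIs. Among interferon-induced genes 3 of 9 (Ifit1, Isg15 and Gbp7, the last named after its value was seen) were at least 2-fold higher in E2 than in Vehicle, against 2.81% of all genes, with a list median of 0.19 against 0.09 over all genes. In E2, 1 barcode gave 61.2% of the Ifit1 UMIs and 1 barcode 54.4% of the Isg15 UMIs. Without the highest barcode of each library, Isg15 was at a ratio of 1.06 and Gbp7 at 1.88, and Ifit1 alone stayed past 2-fold, at 3.37. Of 14 chemokines and cytokines, 4 were lower and 1 higher, with a median of -0.59. Hormone response genes had 2 of 8 lower and none higher, with a median of -0.78. Of 16 immediate early and dissociation genes 2 were lower and none higher, with a median of -0.60, so that handling of the tissue could differ with the group and cannot be told apart from it.

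**Figure D5:**
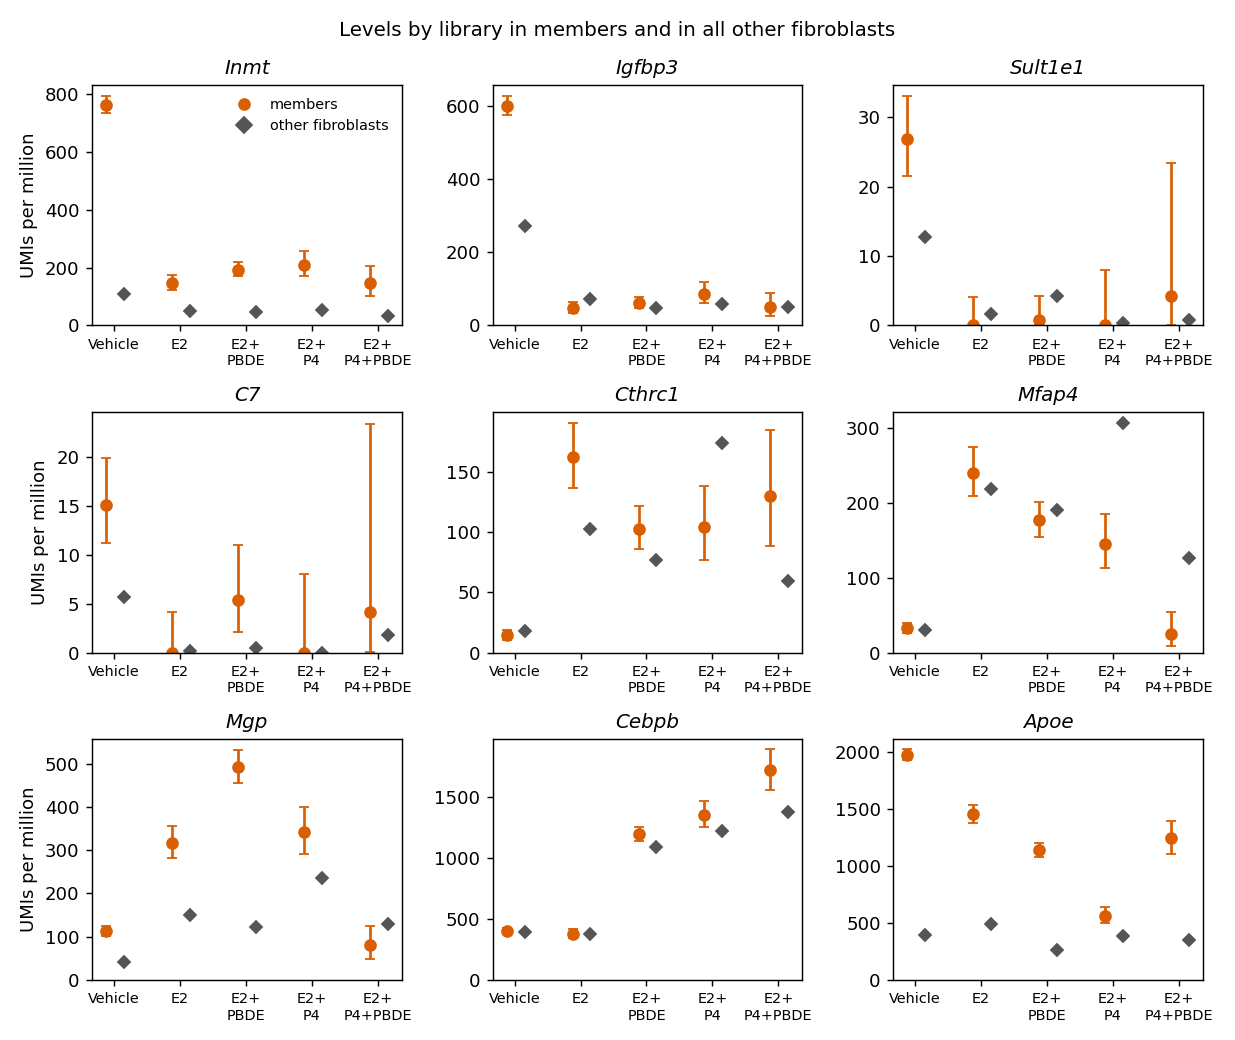
CPM (y axes, from 0) of 9 genes in each library (x axes), in members (orange, bars are exact 95% Poisson intervals of counting error) and in all other fibroblasts (grey diamonds). Igfbp3 stood at 600.1 in Vehicle members and between 47 and 86.9 in the other libraries, and Cebpb at 402 and 378 in Vehicle and E2 and from 1197 upward in the other 3.

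The ether mixture was compared with and without progesterone. In E2+PBDE against E2, 25 of 4069 genes (0.614%) were at least 2-fold higher in members and 36 (0.885%) at least 2-fold lower. The median ratio was -0.13 on the log2 scale, and scaled to it the counts were 40 and 22. In other fibroblasts 6 and 19 of these genes passed. The largest ratio, that of the neutrophil chemokine Cxcl2 at 6.97, came for 73.2% of its E2+PBDE UMIs from 1 barcode. Among the lowest, 61.2% of the Ifit1 UMIs of E2 came from 1 barcode. Gm10263, a predicted gene, was higher at 4.66 (2.10 to 12.2) and the MHC class II gene H2-Ab1 at 3.99 (1.87 to 9.79), the latter at 0.558 in other fibroblasts. In E2+PBDE 1 member gave 25.5% of the H2-Ab1 UMIs. The 5 hematopoietic genes moved the same way, from 28 CPM in E2 to 91.3 in E2+PBDE in members. In other fibroblasts they went from 100.4 to 38.6. In E2+PBDE members 1 barcode gave 50.5% of the UMIs of Cd74, the most abundant of these genes. The 6 macrophage genes went from 17.9 to 56.3 in members, and the part of both lists in the H2-Ab1 values was not tested. Cdkn2c, a cell cycle inhibitor, was lower, at 16 CPM in E2+PBDE against 60.4 in E2.

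Progesterone with estradiol was compared with estradiol alone. In E2+P4 against E2, 23 of 2948 genes (0.78%) were at least 2-fold higher in members and 36 (1.22%) at least 2-fold lower, or 33 and 31 when scaled to the median. In other fibroblasts 13 and 7 of these genes passed. Cebpb, a transcription factor of stress and fat cell formation, had 402, 378, 1197, 1356 and 1722 CPM in members in library order, and 391, 374, 1092, 1219 and 1381 in other fibroblasts. E2+PBDE, E2+P4 and E2+P4+PBDE stood high and Vehicle and E2 low, in members and in other fibroblasts alike. Spp1, osteopontin, was at 102 in E2+P4 members and 86.5 in other fibroblasts against 672 in epithelial barcodes on average, and the part of free epithelial RNA in it was not tested. The chemokine Ccl5 was highest in ratio, with 83.3% of its E2+P4 UMIs in 1 barcode.

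Lower in E2+P4 members were the transcription factor Zeb1 and the endosomal protein Wdfy1, with 7 and 6 UMIs in E2+P4. Their ratios to E2 were 0.23 (0.0887 to 0.505) and 0.259 (0.0902 to 0.609), and those in other fibroblasts 0.87 and 0.792, differences that were not tested.

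In E2+P4+PBDE against E2+P4, with 49 and 78 members, 19 of 1644 genes (1.16%) were at least 2-fold higher and 29 (1.76%) at least 2-fold lower, and 4 and 26 of them passed in other fibroblasts. Gm8186, Commd7 and Pet100 were highest, at ratios of 3.20, 3.13 and 2.78, Gm8186 and Gm10263 being predicted genes whose reads may be shared with related copies, and 32.4% of the Commd7 UMIs came from 1 barcode. Lowest were Ccl5, Mfap4 at 6 UMIs against 67 and Cxcl10 at 7 against 64. Without the highest barcode of each library, the ratio of Ccl5 was 0.412, above those of Mfap4 (0.15) and Cxcl10 (0.0925). Mgp, a matrix inhibitor of calcification, had 113, 318, 493, 343 and 79.8 CPM in members and 41.4, 149.8, 121, 235 and 129.7 in other fibroblasts. It was called higher in members over the 5 libraries (log2 fold change 1.20 ± 0.18, edgeR adjusted p = 2.3e-05), in 4 of 5 libraries, with E2+P4+PBDE the exception. Its estimate turned lower against fibroblasts of no class alone. In E2+PBDE members 1 barcode gave 32.4% of the Mgp UMIs, and in E2+P4 members 1 gave 29.1%.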

How the data were processed

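The deposited matrices hold UMI counts per gene and barcode, which the authors made from 10x Genomics Chromium 3' version 2 libraries. The submitters' processing notes name Cell Ranger 2.0.0 and the mm10 build. No value was normalized before deposit. The study left out multiplets and stromal cells in its own later steps, but the matrices used here hold all barcodes, and no doublet caller was run. As an alternative, barcodes with over 2 times the median UMIs of their library's fibroblasts were left out.

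Counts were summed per library and class and tested with edgeR 4.0.16 in R 4.3.3 (TMM, filterByExpr, glmQLFit and glmQLFTest, library as a block, Benjamini-Hochberg adjustment over all tested genes). The 12 sum genes, the 7 gate genes and mitochondrial genes were left out of the test, sums of under 10 barcodes were not used, and the fit was tested on simulated data. DESeq2 1.42.0 was an alternative. Levels are UMIs per 1000000 UMIs of the class. Ratios between libraries have exact conditional 95% intervals, which cover counting error only. Clusters used scanpy 1.11.5 with 2000 variable genes, 10 components and 20 neighbours. Gene spans are from GENCODE M21 and promoters from RefSeq.

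The members and lists were chosen with earlier results of these data known. Named genes were the 5 of the label, the 16 highest and 10 lowest fold changes among called genes of the same sign in 5 libraries and at least 50 CPM, the 3 highest and 3 lowest ratios per library comparison, hormone receptor and target genes, up to 5 genes per list and the cell type markers. Alternatives were other minimum sums, thinning, a 5% mitochondrial limit, other scaling and filters, each library left out in turn, other resolutions and the highest barcode of a gene left out. Genes outside that rule that the text names were named after their values were seen. Ccl19 stands on more than 1 row of the deposited gene list and was left out of its list. Some genes that the rule names are not reported here.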

Additional observations from a re-analysis of the deposited data

Results flagged for a closer look

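For 11 of the 80 named genes with at least 50 UMIs in both comparisons, the ratio with the ether mixture over the same treatment without it lay above 1 in members on one hormone background and below 1 on the other, with both intervals of counting error clear of 1. The difference between the ratios was not tested, since each group had 1 library. The share of such genes over all genes was not computed. Some of the named genes had been picked for extreme ratios between libraries. The ratios of the 11 genes in other fibroblasts are not given here. The first value of each gene is E2+PBDE over E2 and the second E2+P4+PBDE over E2+P4. Lower without and higher with progesterone were Apoe (0.782 and 2.21), Ccl8 (0.743 and 2.57), Fos (0.798 and 1.61), Jund (0.691 and 1.42), Mmp3 (0.918 and 1.38) and Sgk1 (0.817 and 1.71). Higher without and lower with progesterone were Mgp (1.55 and 0.232), Gas6 (1.43 and 0.687) and the collagens Col4a1 (1.17 and 0.775), Col4a2 (1.15 and 0.74) and Col5a3 (1.20 and 0.588). For Mgp, 1 barcode gave 32.4% of the UMIs in E2+PBDE. Without it the level was 335 CPM beside 318 in E2, and without the highest barcode of each library the ratio was 1.28. Left out in the same way, the highest barcodes changed no direction among the 11 genes. Over all genes of members the median ratio of E2+PBDE over E2 was -0.13 on the log2 scale. With both comparisons scaled to a median ratio of 1, a setting added after seeing the data, 9 of the 11 genes kept opposite directions with both intervals clear of 1. Of the other 2, Mmp3 came to 1.00 and Sgk1 to 0.891 (0.764 to 1.04) for E2+PBDE over E2. The second comparison rested on 49 and 78 members.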

How the results depend on the processing

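No paired analysis was possible because each group had 1 library, as far as the comparisons between groups go. Members and other fibroblasts came from the same libraries and were compared with the library as a block. The share of members moved outside its interval where Inmt was left out of the sum (24.6% in Vehicle) and at an equal lowest UMI number (16.3% in Vehicle and 11.4% in E2+P4+PBDE), both chosen after seeing the data. Against all other fibroblasts, 1033 genes were higher and 996 lower by adjusted p alone. By adjusted p and 2-fold together, 23 were higher and 49 lower against fibroblasts of no class. There Mgp (-0.044) and Bgn (-0.10) turned lower and Igfbp5 (0.24) higher in estimate. Leaving out each library in turn gave 225 to 301 higher and 305 to 342 lower, and DESeq2 gave 244 and 293. Of 88 called genes that the text could name, 84 kept their call with DESeq2, 82 without the library block, 74 after thinning and 19 against fibroblasts of no class, where 54 lost it and 3 turned. The rest of the 88 had no value against fibroblasts of no class. With no filter on low counts, 706 genes were higher and 596 lower against the Pi16 class, 245 higher against the Col15a1 class and 804 higher against the Spon1 class. Leaving out each library gave 289 to 402 higher and 222 to 281 lower against the Pi16 class, 116 to 156 and 30 to 68 against the Col15a1 class, and 372 to 539 and 202 to 319 against the Spon1 class, with the lowest values of 30 and 202 without E2+PBDE. The counts of 2-fold ratios depended on the minimum. In the order E2 with Vehicle, E2+PBDE with E2, E2+P4 with E2 and E2+P4+PBDE with E2+P4, a minimum of 20 UMIs gave 455, 78, 122 and 86 higher and 326, 235, 176 and 136 lower, and one of 100 UMIs gave 75, 8, 6 and 4 higher and 77, 11, 9 and 4 lower. Scaling to the median gave 40 higher and 22 lower for E2+PBDE with E2. The share of members in their main cluster was 76.5 and 92.1% in Vehicle and E2 at a resolution of 0.3, and 41.6, 38.9, 40.9 and 63.3% in Vehicle, E2, E2+PBDE and E2+P4+PBDE at 1.0. Without the barcode of each library that held most UMIs of the gene, a setting added after seeing the data, the ratio of Cxcl2 in E2+PBDE with E2 was 2.13, that of Ccl5 was 4.60 in E2+P4 with E2 and 0.412 in E2+P4+PBDE with E2+P4, and that of Irf7 in E2 with Vehicle was 0.89, after 1.14 with all barcodes. Scaled to the median, the ratio of Mmp3 in E2+PBDE with E2 was 1.0014, after 0.918. Depth limits the members of E2+P4+PBDE most, where 3 UMIs stand for 12.6 CPM.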
